A study of Mus musculus with 38 samples.

Results

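Genes of mature oligodendrocytes and of the myelin they make were followed in bulk RNA-seq libraries of the medial prefrontal cortex of mice. The 31 members were a given list of myelin and oligodendrocyte-enriched genes, found by symbol, and make up 31 of the 57010 gene IDs in the count table. All 31 passed the filter on low counts in both sexes. Each of the 38 libraries came from 1 mouse. Every mouse carried SSTCre, a Cre recombinase driven by the somatostatin promoter, so the controls carried Cre too. Mutants carried in addition a floxed allele on which this Cre acts, and since the recombination takes place in somatostatin neurons, oligodendrocytes are not the cells targeted by design. Mice of each genotype were either left without stress (NS) or exposed to chronic variable stress (CVS) for 21 days, and tissue was taken 24 hours after the last stressor from coronal sections of 1 mm. There were 5 unstressed and 6 stressed control males, 3 unstressed and 4 stressed mutant males, and 5 females of each kind. Neither age nor background strain is stated in the labels. The comparisons ask whether the genotype, the stress or both together go with a different level of these RNAs, and whether the sexes differ in this.

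Oligodendrocytes wrap axons with myelin, a stack of cell membranes that is rich in lipid and held together by a small set of abundant proteins. Precursor cells give rise to newly formed oligodendrocytes, in which transcription factors such as SOX10 and MYRF turn on the genes for these proteins and for the enzymes of myelin lipids. The cortex holds less myelin than the white matter below it. In bulk RNA, fewer oligodendrocytes and less RNA per oligodendrocyte cannot be told apart.

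Upstream sequences are shown for the 3 members with an entry, Mag, Mobp and Cnp, that followed the rest of the list most closely. This holds for levels within groups over all 38 libraries. The member with an entry that followed the list least in males, Gal3st1, is shown as well. RefSeq windows (build GRCm38.p6, another build than the GRCm39 of the counts) were found for 21 of the 31 members, with 29 windows because some genes have more than 1 start. The 250 bases before the start are given, from the first listed start of each gene. Mag lies at chr7:30914864-30915113 (minus strand), Mobp at chr9:120149492-120149741, Cnp at chr11:100574689-100574938 and Gal3st1 at chr11:3983386-3983635 (all 3 on the plus strand). The sequences run 5′ to 3′ along the gene's strand. Capitals mark every match on either strand to ACAAAG or AACAAT, cores bound by SOX factors, or to CTGGNAC. The N stands for any base, so CTGGNAC is looser than the core bound by MYRF, and not every match to it is that core.
Mag: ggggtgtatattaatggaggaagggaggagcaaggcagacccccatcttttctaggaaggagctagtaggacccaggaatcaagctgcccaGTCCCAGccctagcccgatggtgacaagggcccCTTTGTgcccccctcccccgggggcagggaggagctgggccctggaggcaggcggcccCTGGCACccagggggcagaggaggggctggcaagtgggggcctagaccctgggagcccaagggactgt
Mobp: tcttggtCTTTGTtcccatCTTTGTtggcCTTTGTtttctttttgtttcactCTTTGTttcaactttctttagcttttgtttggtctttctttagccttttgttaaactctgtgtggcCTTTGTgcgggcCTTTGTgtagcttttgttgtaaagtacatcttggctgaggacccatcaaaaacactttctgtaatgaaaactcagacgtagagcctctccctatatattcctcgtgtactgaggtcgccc
Cnp: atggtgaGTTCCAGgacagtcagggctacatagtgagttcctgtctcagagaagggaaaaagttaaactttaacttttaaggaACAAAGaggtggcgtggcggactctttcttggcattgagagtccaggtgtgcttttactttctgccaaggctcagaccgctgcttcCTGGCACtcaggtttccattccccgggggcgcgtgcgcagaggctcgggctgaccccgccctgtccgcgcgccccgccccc
Gal3st1: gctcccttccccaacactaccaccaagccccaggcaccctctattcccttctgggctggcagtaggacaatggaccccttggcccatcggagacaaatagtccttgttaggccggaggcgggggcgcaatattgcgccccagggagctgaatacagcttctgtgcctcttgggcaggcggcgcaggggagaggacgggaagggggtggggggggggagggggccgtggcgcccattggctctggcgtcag
No 2 of the marked matches overlap. The Mobp window held ACAAAG 6 times, in each case on the opposite strand (CTTTGT), and neither of the other motifs. Mag and Cnp each held both ACAAAG and CTGGNAC, and the Gal3st1 window held none of the 3. ACAAAG was present in 8 of the 29 members' windows and in 16.5% of all 32851 windows of this length. CTGGNAC was present in 9 of 29 and in 16.1% of all windows, and AACAAT in 4 of 29 and 9.4%. A match is a run of letters and not a measured binding site.

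Library totals ran from 17.64 to 27.51 M counts (M for 1000000, mean 21.06 ± 2.275 M, SD, n = 38), and the 31 members together took 0.121% to 0.207% of the counts of a library. The unit of a level is CPM (a library's count scaled to 1000000 counts in all, adjusted within a sex by the TMM method). Since the names of male and female animals start differently and could mark 2 cohorts, no level was compared between the sexes. Cdhr1, a cadherin of the olfactory bulb, stood at 16.6 CPM in male control CVS replicate 1, 25.8 in male mutant NS replicate 2 and 27.5 in male mutant NS replicate 3, against 1.70 to 5.20 in the other 35 libraries. A summed level was taken over all 8 listed olfactory bulb markers, of which 5 passed the filter on low counts. It ran from 17.1 to 21.6 CPM in unstressed control males and from 17.8 to 34.6 in stressed ones. In mutant males it ran from 20.0 to 44.5 without stress and from 19.5 to 22.7 after CVS. For each of the 14 comparisons described below that holds any of these 3 libraries, the count of negative members is therefore also given without them, and in each of these runs no member was called. Earlier results of these data put the genotype of male mutant CVS replicate 1 in doubt, which was not tested here. Values of Adamts4 and Mog in the pooled genotype comparison are also given without that library. The other comparisons that hold it are not given separately without it.

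Among the proteins that build myelin itself, Mbp, whose product holds the cytoplasmic faces of the membrane together, had the highest level per kilobase of exon of all 31 members (82.1 CPM per kb in males and 61.8 in females). Cnp, a phosphodiesterase of non-compact myelin, stood at 31.2 and 27.2 CPM per kb, and Mobp, a basic protein of the same compact layers as Mbp, at 23.2 and 17.1. The raft proteolipid gene Mal stood at 23.6 and 19.2 CPM per kb and Cldn11, the claudin of myelin's tight junctions, at 24.2 and 20.2. Among surface proteins, Mag, an adhesion molecule of the membrane next to the axon, stood at 10.5 and 7.89 CPM per kb and Mog, on the outermost lamella, at 8.42 and 6.82. A pair of metabolic genes came next after Mbp per kilobase in both sexes. Qdpr, which regenerates tetrahydrobiopterin, stood at 46.1 and 44.7 CPM per kb and Car2, a carbonic anhydrase, at 40.0 and 34.4. Both are also made by cells other than oligodendrocytes. The length used is that of all annotated exons of a gene together (6.85 kb for Mobp, 1.79 kb for Qdpr), and the order depends on it. By CPM alone, Mobp (159 in males and 117 in females) and Cnp (113 and 99.1) stood above Car2 (96.9 and 83.3) and Qdpr (82.4 and 79.9). The small heat shock protein gene Cryab stood at 25.3 and 21.3 CPM per kb. The lipid enzyme genes were low, with Ugt8a, which adds galactose to ceramide, at 3.93 and 2.94 CPM per kb, Fa2h, a fatty acid hydroxylase, at 3.77 and 2.97, and Gal3st1, which makes sulfatide, at 3.65 and 3.40. Of the transcription factors, Sox10 stood at 7.05 and 6.14 CPM per kb, Nkx6-2 at 2.12 and 1.83 and Myrf at 2.11 and 1.62. Aspa, which cleaves N-acetylaspartate, was the lowest member per kilobase, at 0.776 and 0.589.

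As a summary of a library, the geometric mean CPM of the 31 members was taken. In control males it averaged 24.4 ± 1.69 without stress (SD, n = 5) and 24.2 ± 2.28 after CVS (n = 6), and in mutant males 22.4 ± 3.54 without stress (n = 3) and 21.7 ± 4.04 after CVS (n = 4). In control females it averaged 20.2 ± 1.16 without stress and 18.6 ± 0.747 after CVS, and in mutant females 18.0 ± 1.06 and 18.5 ± 1.08 (n = 5 each). Groups within a sex overlapped, and the mutant males spread most: the 3 mutant NS males ran from 18.8 to 25.9 and the 4 mutant CVS males from 17.7 to 27.1. No test was made on this summary.

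**Figure D1:**
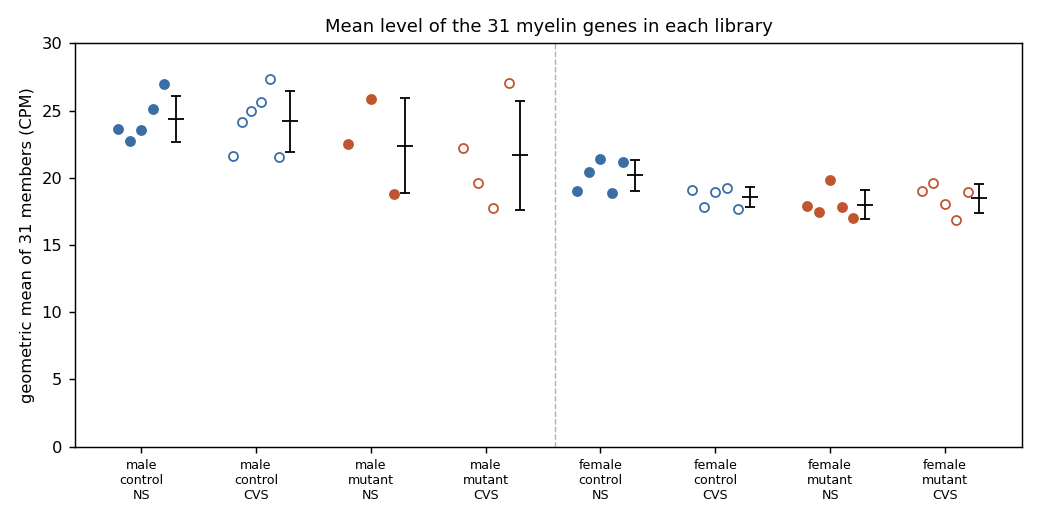
Geometric mean CPM (counts per 1000000 counts) of the 31 members in each library, by group: points are libraries (blue for control, orange for mutant, filled for NS, open for CVS), and bars beside them give the group mean and SD. Mutant males run from 17.7 to 27.1, a wider span than in any female group, and groups within a sex overlap.

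None of the 31 members passed the edgeR quasi-likelihood test with Benjamini-Hochberg adjustment over all genes (adjusted p under 0.05) in any of the 14 comparisons. DESeq2, run as an alternative, called 0 members in 12 of them. It called 2 in the genotype comparison over both sexes, where it called 295 of all genes against 193 with edgeR. In the genotype comparison of unstressed females it called 1 member, and 90 of all genes against 21 with edgeR. The values below are therefore differences that did not pass, set against how often all genes reached the same threshold. Members are not independent of each other, since they share libraries and deviate together, and comparisons within a sex share groups, so their counts are not separate evidence.

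Averaged over sex and stress, 30 of 31 members had a lower fitted level in mutants than in controls, with a median log2 fold change of −0.11. Over all 17671 genes tested the median was 0.00 and 50.1% were negative. No member was called, against 1.09% of all genes, and 17 of 31 (54.8%) had an unadjusted p under 0.05, all lower in mutants, against 11.2% of all genes in either direction. The 2 smallest p values belonged to Adamts4, a protease that cuts matrix proteoglycans of the aggrecan family (log2 fold change −0.25 ± 0.0702, SE, edgeR adjusted p 0.0563), and to Mog (−0.24 ± 0.0679, adjusted p 0.0663). Mag came next (−0.19 ± 0.0654, adjusted p 0.209). By role, all 9 structural myelin genes were negative (5 with an unadjusted p under 0.05), as were all 6 surface genes (4), all 3 lipid enzyme genes (2), all 5 metabolic genes (1, Trf, the iron carrier transferrin) and all 3 transcription factor genes (1, Myrf). In the last set 4 of 5 were negative, each with an unadjusted p under 0.05: Adamts4, Bcas1, Plekhh1 and Ppp1r14a. The exception was Ndrg1, which codes for a cytoplasmic protein induced by stress (0.07 ± 0.0369, adjusted p 0.463).

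**Figure D2:**
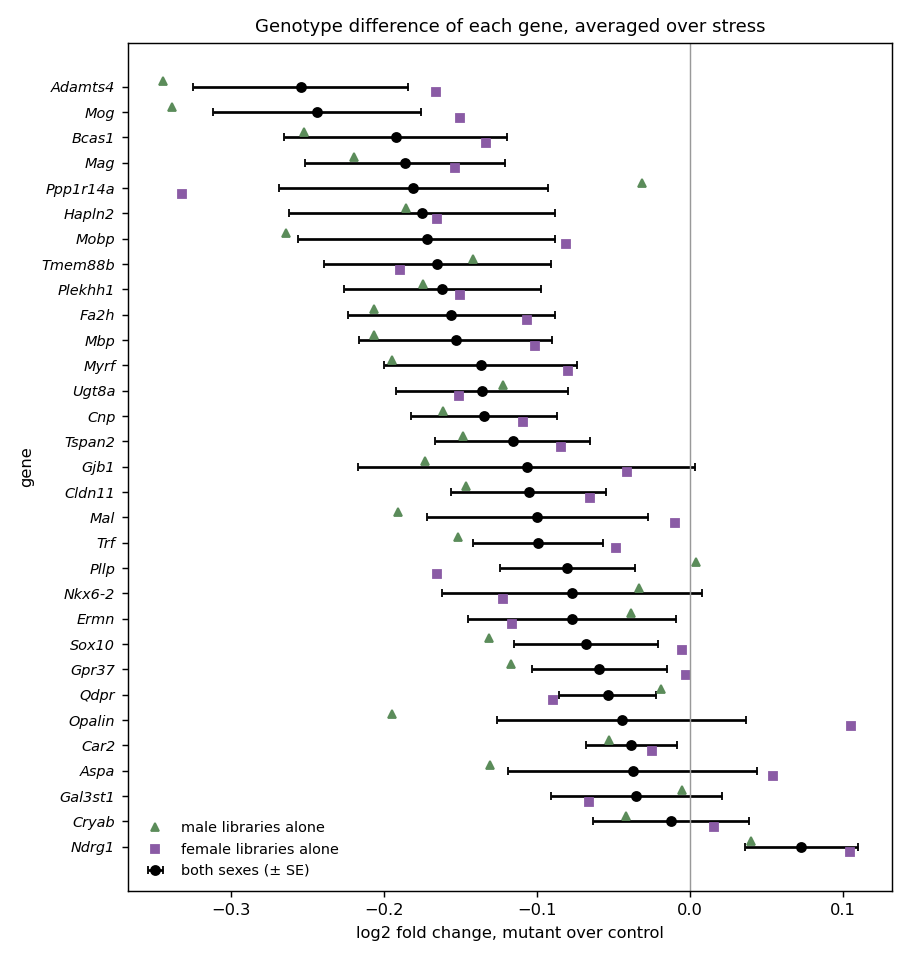
Log2 fold change of mutant over control for each member, averaged over stress: black points with bars give the value and SE over both sexes, and green triangles and purple squares give the male and the female libraries fitted alone. All black points lie below 0 except Ndrg1 (0.07), and Adamts4 (−0.25) and Mog (−0.24) lie lowest.

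Mog stood in male controls at 14.1, 15.1, 15.5, 17.2 and 16.2 CPM without stress, and after CVS at 12.2 (lowest), 16.7 (median) and 17.5 (highest of 6). In male mutants it stood at 13.3, 14.5 and 8.69 without stress and at 11.6, 11.6, 10.3 and 16.7 after CVS. Among mutant males only mutant CVS replicate 4, at 16.7, lay above 14.5 CPM, the level that most control males exceeded, and the genotypes overlapped. In females Mog stood at 10.1, 12.7, 13.6, 13.2 and 14.3 in unstressed controls and at 11.96, 11.5, 11.4, 11.8 and 11.7 in stressed ones. Female mutants stood at 13.7, 9.17, 12.9, 8.88 and 10.6 without stress and at 12.1, 11.9, 11.0, 9.04 and 11.0 after CVS. The female genotypes overlapped, and the control CVS females lay closest together. The genotype difference of Mog was −0.34 ± 0.109 in males alone and −0.15 ± 0.0753 in females alone (edgeR adjusted p 0.313 and 0.474).

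Adamts4 stood in male controls at 9.91, 9.85, 8.85, 10.4 and 13.6 CPM without stress and at 7.75, 9.60 and 11.2 (lowest, median and highest of 6) after CVS. Male mutants stood at 9.13, 8.74 and 6.14 without stress and at 7.79, 8.67, 5.55 and 8.87 after CVS. In females the values were 10.8, 10.3, 8.97, 8.64 and 10.8 in unstressed controls, 9.47, 7.32, 7.45, 8.66 and 8.64 in stressed controls, 8.34, 7.19, 7.80, 9.95 and 6.85 in unstressed mutants, and 9.56, 8.20, 8.86, 5.93 and 8.54 in stressed mutants. Mutants were lower on average and overlapped the controls in each pair of groups; in unstressed females all mutants but the 1 at 9.95 CPM lay below every control. The difference was −0.34 ± 0.111 in males alone and −0.17 ± 0.0834 in females alone (edgeR adjusted p 0.300 and 0.475). Fitted alone, neither sex called a member for genotype. Across all genes the share called was 0.116% in males and 0.584% in females. Without the 3 libraries high in Cdhr1 the values over both sexes were −0.21 for Adamts4 (adjusted p 0.340) and −0.22 for Mog (adjusted p 0.195), with 30 of 31 members negative. Leaving out single libraries moved the count of members called from 0 to at most 4, reached without male mutant CVS replicate 4 (Adamts4, Mog, Mag and Plekhh1). The number of all genes called in these runs is not given. Adamts4, Mog or both also passed without male control NS replicate 3, male control CVS replicate 1, 3 or 6, male mutant NS replicate 1 or 2, female control NS replicate 1 or 4, female mutant NS replicate 1 or 4, or female mutant CVS replicate 1. Without male mutant CVS replicate 1 the values were −0.26 for Adamts4 (adjusted p 0.0875) and −0.23 for Mog (adjusted p 0.111). Over all runs without a single library, 29 to 30 of 31 members were negative, and the members' median ran from −0.14 to −0.08.

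**Figure D3:**
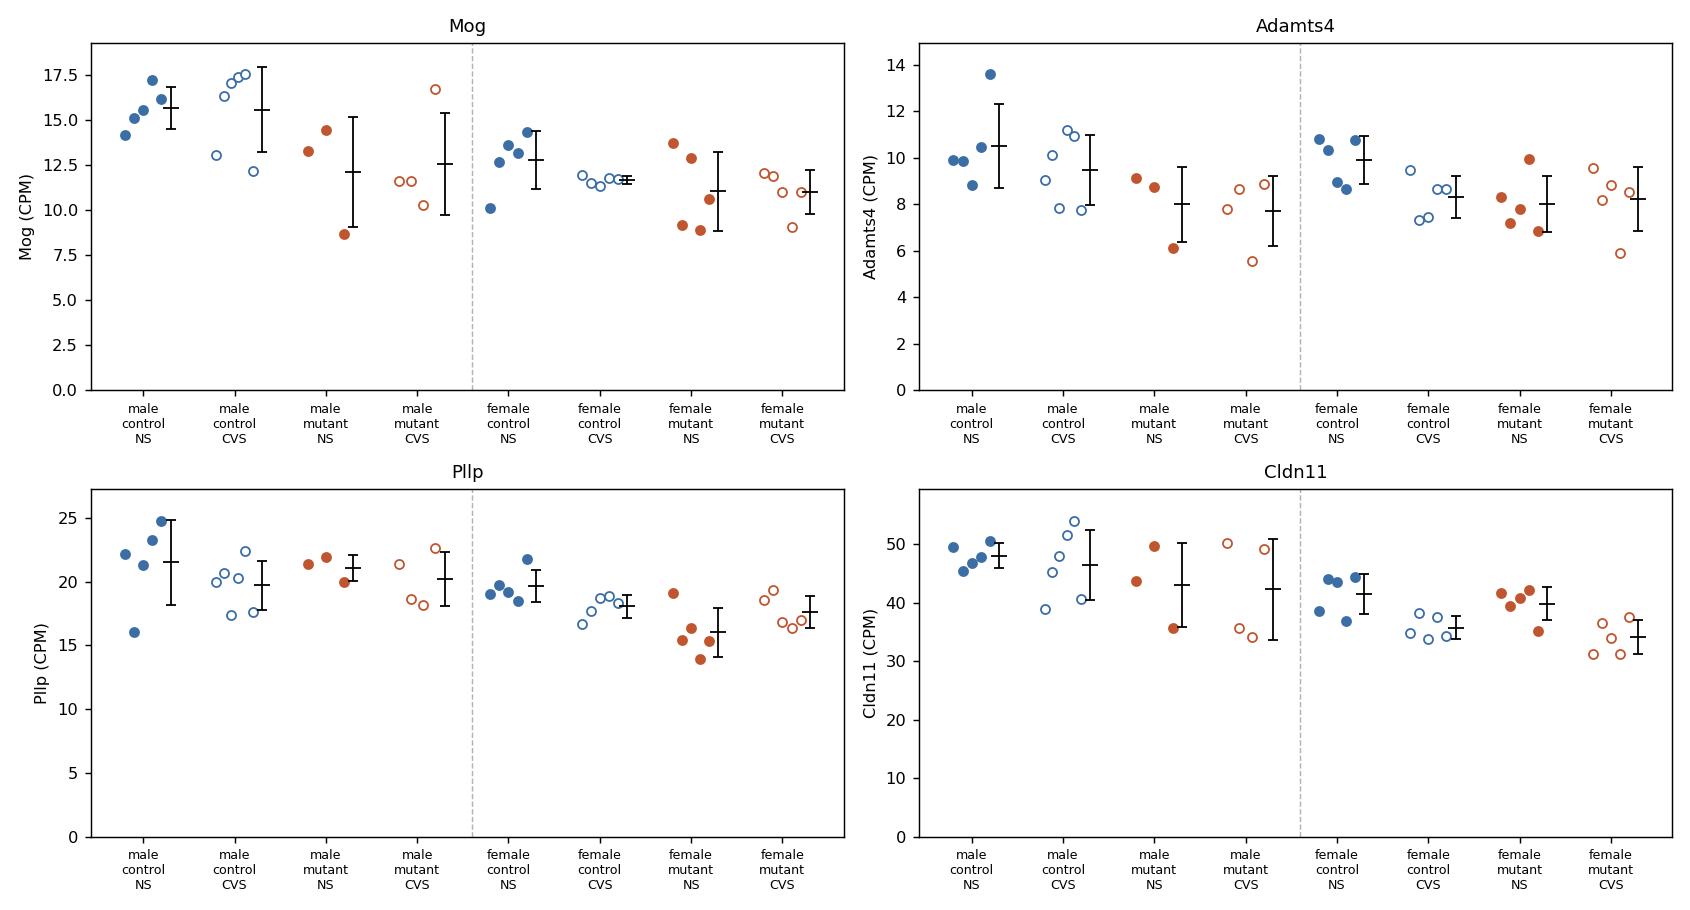
CPM (counts per 1000000 counts) of Mog, Adamts4, Pllp and Cldn11 in each library, by group: points are libraries (blue for control, orange for mutant, filled for NS, open for CVS), and bars give the group mean and SD. Female Cldn11 is lower after CVS in both genotypes, female mutant NS is low in Pllp, and mutant males are spread widely in Mog.

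Mbp, Mobp and Cnp, the core genes of the myelin sheath, had smaller fitted differences. Mbp averaged 745 ± 57.0 CPM in unstressed (SD, n = 5) and 724 ± 95.6 in stressed control males (n = 6), and 658 ± 175 in unstressed (n = 3) and 616 ± 140 in stressed mutant males (n = 4). Its 3 unstressed mutant males stood at 658, 833 and 484. In females Mbp averaged 560 ± 50.1, 523 ± 39.5, 498 ± 49.4 and 511 ± 42.0 in the same order of groups (n = 5 each). The spread among mutant males exceeded the difference of the group means. Over both sexes its genotype difference was −0.15 ± 0.0631 (edgeR adjusted p 0.328). Mobp differed by −0.17 ± 0.0840 (adjusted p 0.443) and Cnp by −0.13 ± 0.0475 (adjusted p 0.212). Sox10 (−0.07 ± 0.0469) and Aspa (−0.04 ± 0.0813) were nearer to 0, as were Car2 (−0.04 ± 0.0296) and Cryab (−0.01 ± 0.0512).

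In unstressed males, 26 of 31 members were negative in mutants against controls (median −0.12, against −0.00 over all genes). No member was called and 2 (6.45%) had an unadjusted p under 0.05, Adamts4 (−0.39 ± 0.166, edgeR adjusted p 0.776) and Mog (−0.36 ± 0.164, adjusted p 0.804), against 0.0174% of all genes called and 6.13% at the unadjusted threshold. Opalin, a glycoprotein of the oligodendrocyte surface membrane, had the next smallest p (−0.35 ± 0.176, adjusted p 0.823). The members' share is near that of all genes. In stressed males, 28 of 31 were negative (median −0.15), 0 were called and 3 (9.68%) had an unadjusted p under 0.05, against 0.0523% and 7.62% of all genes. These were Aspa (−0.33 ± 0.143, adjusted p 0.614), the tetraspanin gene Tspan2 (−0.24 ± 0.110, adjusted p 0.647) and Mog (−0.31 ± 0.144, adjusted p 0.647). Aspa stood at 4.15, 3.83, 3.39 and 4.88 CPM in the mutant CVS males and at 3.93, 5.16 and 5.84 (lowest, median and highest) in the 6 control CVS males, so the groups overlapped. The male medians depended on single mice: without mutant NS replicate 3 the unstressed median was −0.02 with 18 of 31 negative (−0.12 with 26 negative without the 3 libraries high in Cdhr1, which leaves 1 unstressed mutant), and the stressed median ran from −0.28 without mutant CVS replicate 4 to −0.07 without replicate 3 (−0.18 with 27 negative without the 3 libraries high in Cdhr1).

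In unstressed females, 28 of 31 members were negative in mutants (median −0.17, against 0.00 over all genes). No member was called, against 0.128% of all genes, and 15 (48.4%) had an unadjusted p under 0.05, 14 lower and 1 higher, against 8.07% of all genes. Pllp, which codes for plasmolipin, a proteolipid of the myelin membrane, had the smallest p (−0.29 ± 0.0756, edgeR adjusted p 0.114). It stood at 19.1, 19.8, 19.2, 18.5 and 21.7 CPM in control NS and at 19.1, 15.4, 16.4, 14.0 and 15.3 in mutant NS. All mutants but replicate 1 lay below every control. Plekhh1, which codes for a protein with pleckstrin homology and FERM domains, came next (−0.36 ± 0.106, adjusted p 0.240), with 10.4, 10.04, 10.2, 11.1 and 11.0 CPM in controls and 5.67, 9.39, 9.73, 8.45 and 7.94 in mutants. These 2 groups did not overlap, and how many of all genes do the same was not counted. Without mutant NS replicate 1, at 5.67 CPM, the Plekhh1 difference was −0.25. The transmembrane protein gene Tmem88b followed (−0.34 ± 0.101, adjusted p 0.243), with 13.6, 17.4, 16.8, 14.1 and 16.1 CPM in controls and 11.97, 11.7, 14.6, 10.3 and 12.9 in mutants, where 1 mutant lay among the controls. The widest fitted difference was that of Ppp1r14a, an inhibitor of myosin phosphatase (−0.52 ± 0.167, adjusted p 0.300), a gene at only 2.09 to 4.53 CPM in these 2 groups. Ndrg1 was the 1 member on the higher side (0.20 ± 0.0703, adjusted p 0.376), at 31.8 ± 2.38 CPM in controls and 36.5 ± 2.73 in mutants (SD, n = 5 each).

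By role, the unstressed female difference had a median of −0.11 in the 9 structural genes, −0.21 in the 6 surface genes, −0.26 in the 3 lipid enzyme genes, −0.06 in the 5 metabolic genes and −0.12 in the 3 transcription factor genes. In the surface set Mag stood at −0.26 ± 0.0768 (edgeR adjusted p 0.250), and in the lipid set Fa2h stood at −0.28 ± 0.110 (adjusted p 0.460). Mbp stood at −0.17 ± 0.0780 (adjusted p 0.601), Sox10 at −0.03 ± 0.0862 and Cryab at −0.02 ± 0.0900. In stressed females, 18 of 31 members were negative (median −0.03), and 11 were without mutant CVS replicate 4 (median 0.01). No member was called and 0 had an unadjusted p under 0.05, against 0.0243% and 7.08% of all genes. The smallest p values there were those of Ugt8a (−0.18 ± 0.106, adjusted p 0.762), Tspan2 (−0.12 ± 0.0741, adjusted p 0.791) and the receptor gene Gpr37 (0.08 ± 0.0691, adjusted p 0.867).

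For stress, averaged over sex and genotype, 24 of 31 members were negative after CVS (median −0.04, against 0.00 over all genes). Without male mutant NS replicate 2, 14 of 31 were negative and the median was 0.00, and without the 3 libraries high in Cdhr1 21 were negative. No member was called and 4 (12.9%) had an unadjusted p under 0.05, all lower, against 0.0170% and 9.37% of all genes. They were Cryab (−0.13 ± 0.0511, edgeR adjusted p 0.430), Cldn11 (−0.13 ± 0.0505, adjusted p 0.430), Car2 (−0.07 ± 0.0296, adjusted p 0.469) and Ugt8a (−0.12 ± 0.0561, adjusted p 0.520). Mbp (−0.05 ± 0.0629), Mog (−0.03 ± 0.0678), Mobp (0.00 ± 0.0838) and Myrf (−0.01 ± 0.0629) were close to 0. In males alone, averaged over genotype, 21 of 31 were negative and 0 were called, as over all genes (0%).

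Cldn11 in females was the member with the most regular stress difference. It stood at 38.6, 44.0, 43.4, 36.9 and 44.4 CPM in control NS and at 34.8, 38.2, 33.8, 37.6 and 34.3 in control CVS. In mutants it stood at 41.7, 39.4, 40.8, 42.1 and 35.2 without stress and at 31.3, 36.5, 34.0, 31.2 and 37.6 after CVS. Stressed females were lower on average in both genotypes, with some overlap in each. The difference was −0.21 ± 0.0639 in controls (edgeR adjusted p 0.367) and −0.22 ± 0.0643 in mutants (adjusted p 0.333). Averaged over genotype in the female libraries alone, a fit added after the data were seen, it was −0.22 ± 0.0453 (adjusted p 0.0290). It was the 1 member called in that fit, in which 0.207% of all genes were called. In males the same average was −0.04 ± 0.0932 (adjusted p 1.00), and the difference between the sexes was 0.18 ± 0.101 (adjusted p 0.727), so a sex difference was not shown.

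Taken group by group, stress in female controls gave 27 of 31 negative members (median −0.11). No member was called, nor any other gene (0%), and 3 (9.68%) had an unadjusted p under 0.05, against 8.72% of all genes. Beside Cldn11 these were Ermn, a cytoskeletal protein gene (−0.29 ± 0.0960, edgeR adjusted p 0.384), and Adamts4 (−0.25 ± 0.117, adjusted p 0.540). Ermn stood at 14.6, 12.8, 14.9, 14.7 and 13.9 CPM in control NS and at 13.1, 10.8, 11.0, 10.5 and 12.5 in control CVS, with 1 stressed control above the lowest unstressed one. In female mutants 12 of 31 were negative after stress (median 0.03), and the median was below 0 without mutant NS replicate 5 or mutant CVS replicate 1. Of these 31, 0 were called (0% of all genes) and 2 (6.45%) had an unadjusted p under 0.05, Cldn11 and Ndrg1 (−0.16 ± 0.0702, adjusted p 0.563), against 7.91% of all genes. Gal3st1 had the next smallest p there (0.23 ± 0.117, adjusted p 0.639). In male controls 17 of 31 were negative (median −0.02), 0 were called and 0 had an unadjusted p under 0.05, against 0.0116% and 7.39% of all genes. Without the 3 libraries high in Cdhr1 14 were negative (median 0.01), and the median was also above 0 without control NS replicate 5, control CVS replicate 1 or control CVS replicate 6. The matrix link protein gene Hapln2 (0.26 ± 0.141, adjusted p 0.7098), Cryab (−0.15 ± 0.0873, adjusted p 0.737) and Sox10 (−0.12 ± 0.0821, adjusted p 0.767) had the smallest p values there.

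In male mutants 22 of 31 members were negative after stress (median −0.06), 0 were called (0% of all genes) and 1 (3.23%), Car2, had an unadjusted p under 0.05, against 3.38% of all genes. Car2 stood at 98.2, 113 and 88.6 CPM without stress and at 95.0, 89.5, 85.5 and 91.4 after it (−0.15 ± 0.0707, edgeR adjusted p 1.00). Cryab (−0.19 ± 0.111) and Nkx6-2 (−0.28 ± 0.203) came next, both with adjusted p 1.00. The median turned to 0.06 with 7 negative without mutant NS replicate 2, and to 0.04 with 12 negative without mutant CVS replicate 3, so its sign rests on single mice. Without the 3 libraries high in Cdhr1, which leaves a single unstressed mutant male, it was −0.08 with 22 negative.

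The interaction asks whether stress acts differently in the 2 genotypes. In females 26 of 31 members were positive (median 0.12, against 0.00 over all genes), which means that the mutant minus control difference was less negative after CVS. None was called (0% of all genes) and 5 (16.1%) had an unadjusted p under 0.05, all positive, against 4.0% of all genes. They were Plekhh1 (0.41 ± 0.149), Pllp (0.26 ± 0.107), Gal3st1 (0.40 ± 0.165), Fa2h (0.35 ± 0.155) and Tmem88b (0.29 ± 0.142), each with edgeR adjusted p 1.00. The group means of Plekhh1 were 10.6 ± 0.463 CPM in unstressed and 9.18 ± 0.673 in stressed controls, and 8.23 ± 1.60 in unstressed and 9.51 ± 0.848 in stressed mutants (SD, n = 5 each). The unstressed mutants include replicate 1 at 5.67 CPM, the lowest of them. In males 18 of 31 were negative (median −0.04), 0 were called (0% of all genes) and 0 had an unadjusted p under 0.05, against 4.18% of all genes. The male median turned to 0.09 with 8 negative without mutant NS replicate 2, to 0.05 with 11 negative without mutant CVS replicate 3 and to 0.03 without mutant CVS replicate 2. Without the 3 libraries high in Cdhr1, which leaves a single unstressed mutant male, it was −0.06 with 21 negative. Aspa (−0.39 ± 0.215), Nkx6-2 (−0.39 ± 0.258) and Opalin (0.31 ± 0.234) had the smallest p values, each with adjusted p 0.995.

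Male and female names start differently and could mark 2 cohorts, so a sex difference in an effect cannot be told apart from cohort. The test of a sex difference in the genotype effect called 0 members, and 0 had an unadjusted p under 0.05, against 0.00566% and 8.01% of all genes. Here 23 of 31 were negative, that is, the genotype difference was lower in males (median −0.06). The median ran from −0.14 without male mutant NS replicate 2 to −0.01 without male mutant NS replicate 3, where 18 were negative, and without the 3 libraries high in Cdhr1 it was −0.08 with 23 negative. Pllp (0.17 ± 0.0884, edgeR adjusted p 0.639), Opalin (−0.30 ± 0.163, adjusted p 0.667) and Ppp1r14a (0.30 ± 0.175, adjusted p 0.691) had the smallest p values. For the stress effect 14 of 31 were negative (median 0.01; 14 with 0.02 without the 3 libraries high in Cdhr1). This count ran from 7 without male mutant NS replicate 2 (8 without male mutant CVS replicate 3) to 21 without male mutant NS replicate 3. Of the 31, 0 were called (0% of all genes) and 0 had an unadjusted p under 0.05, against 7.18% of all genes. Cldn11, Qdpr (−0.11 ± 0.0630, adjusted p 0.734) and Hapln2 (0.24 ± 0.174, adjusted p 0.8004) came first there.

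The members varied together between mice of the same group, most of all in males. Within groups the SD of log2 CPM had a median of 0.243 over the members in males, against 0.146 over all genes tested, and of 0.173 in females, against 0.138. In male mutant CVS replicate 4 and in male control NS replicate 5, all 31 members lay above their group mean. In male mutant NS replicate 2, 30 of 31 lay above it. In male mutant NS replicate 3, 30 of 31 lay below it, and in male mutant CVS replicate 3, 29 of 31. Both unstressed mutants named here are among the 3 libraries high in Cdhr1. In the remaining one of these, male control CVS replicate 1, 27 of 31 lay below the group mean. The SD given here and the correlations below were not computed without these 3 libraries. In a group of 3, deviations from the mean cancel out, so a low mouse raises those of the others. Female libraries were less uniform, the most one-sided being mutant NS replicate 3, with 26 of 31 above. The deviation of the members' mean from the group mean ran from −0.27 to 0.34 log2 units in males and from −0.13 to 0.14 in females.

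**Figure D4:**
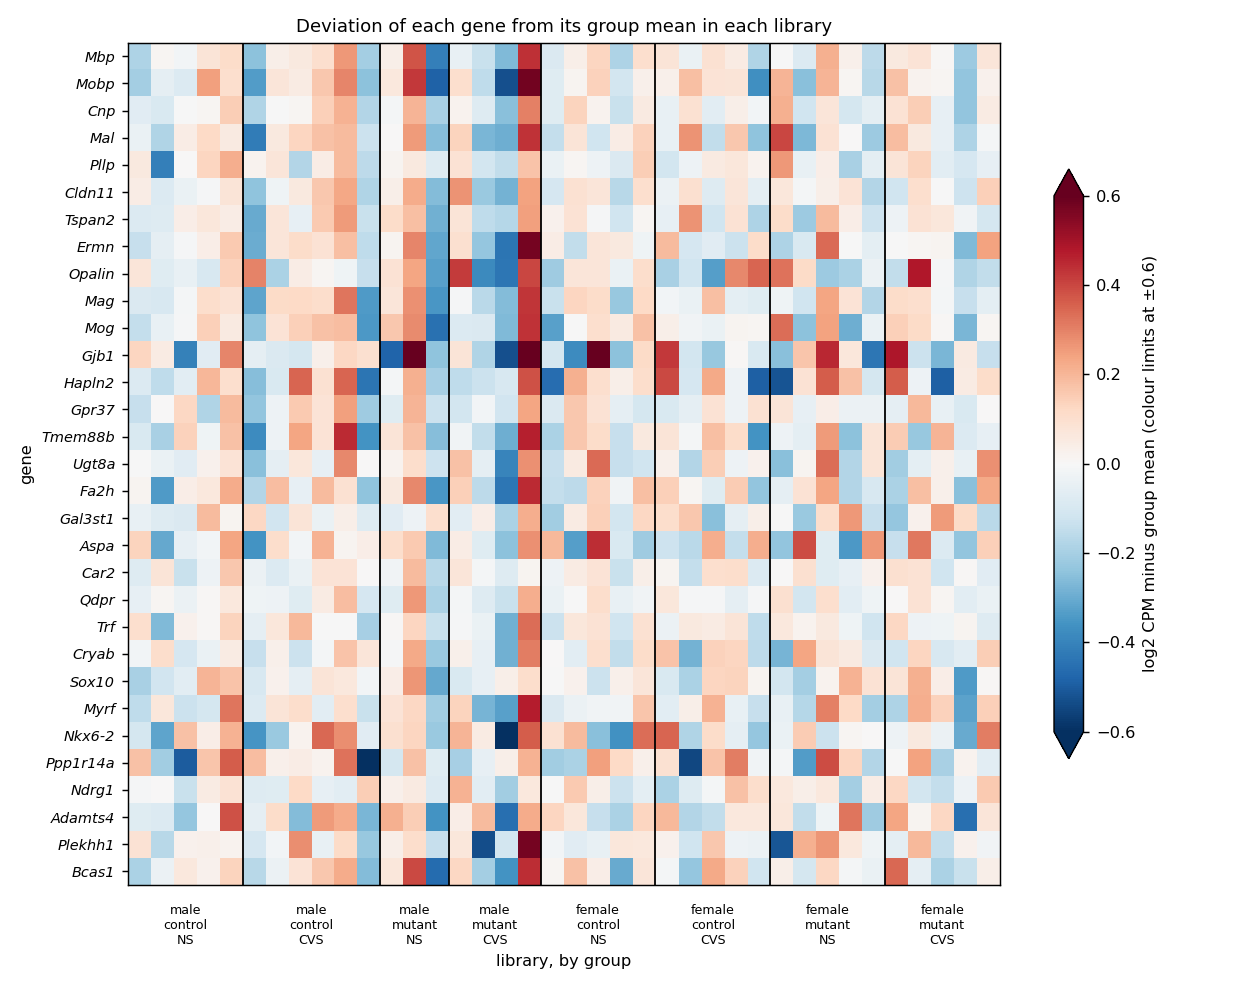
Deviation of each member's log2 CPM from its group mean in every library: each line across is a gene, each column a library, columns are ordered by group, and colour runs from blue (below the group mean) to red (above), limited at 0.6. Single male libraries are red or blue from top to bottom, such as the last mutant CVS male with all 31 members above the mean, while female columns are mixed.

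The correlation of each member with the mean of the other 30, over deviations from group means, is given as a description, since the genes share libraries and their depth. In the 18 male libraries Pearson's r had a median of 0.80 and ran from 0.35 (Gal3st1) to 0.98 (Cnp), with 15 members above 0.8 and 3 below 0.5 (Gal3st1, Ndrg1 and Ppp1r14a). In the 20 female libraries the median was 0.40 and the range −0.05 (Aspa) to 0.95 (Mbp), with 1 member above 0.8 and 19 below 0.5. Mbp (0.94 in males) and Mag (0.94 in males, 0.80 in females) followed the others in both sexes. The 3 genes whose upstream windows are printed for following best were chosen over all 38 libraries. They had r of 0.94 (Mag), 0.96 (Mobp) and 0.98 (Cnp) in males, and of 0.80, 0.62 and 0.58 in females. The transcription factor gene Sox10 followed less closely (0.63 and 0.34) than Myrf (0.83 and 0.60).

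**Figure D5:**
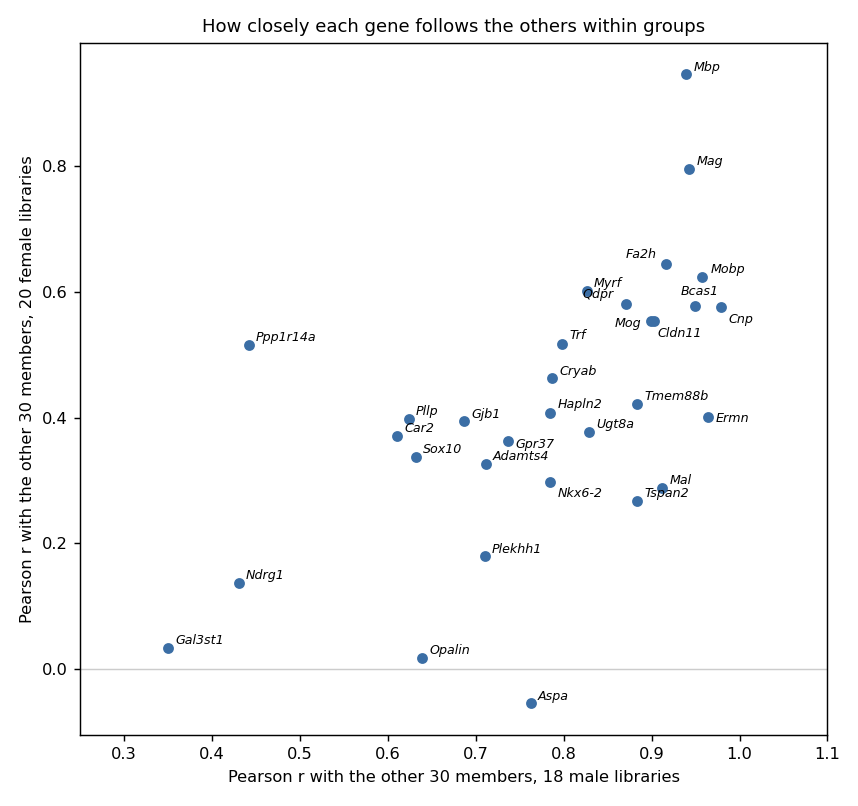
Pearson r of each member with the mean of the other 30, over deviations of log2 CPM from group means, in 18 male libraries (horizontal) and 20 female libraries (vertical), each point a gene. Mbp and Mag lie high in both sexes, and Aspa, Opalin and Gal3st1 lie near 0 in females.

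All 16333 genes were ranked by correlation with the members' mean over the 38 libraries, each member being set against the mean of the other 30, a ranking added after the data were seen. In it 19 members were within the top 50 and 24 within the top 100, against 22 and 24 where a member's own values were part of the mean. Genes outside the list that ranked high included Plekhb1 (r 0.84, rank 7), the septin gene Sept4 (0.74, rank 14), Prr18 (0.74, rank 15), the deacetylase gene Sirt2 (0.68, rank 21), Gatm, an enzyme of creatine synthesis (0.67, rank 23), and the growth factor gene Tgfa (0.67, rank 24). A separate list of 43 other mature oligodendrocyte genes had a mean deviation with r of 0.95 to that of the members in males and 0.58 in females. For 11 genes of newly formed oligodendrocytes r was 0.57 and 0.19, and for 13 precursor genes 0.08 and 0.20. The likeness was thus lower for precursor markers than for mature ones in both sexes, a difference that was not tested. Some lists outside the lineage reached values like those of newly formed oligodendrocytes. For 10 GABAergic neuron genes r was 0.57 and 0.29, and for 15 fatty acid and sphingolipid genes 0.51 and 0.26. For 14 endothelial and pericyte genes it was 0.37 and 0.30. The lowest values were −0.34 in males (8 meningeal fibroblast genes) and −0.54 in females (2 choroid plexus genes).

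Markers of other cells gave the following beside the genotype difference over both sexes. Of 44 other mature oligodendrocyte genes tested, 36 were negative (median −0.08) and 1 was called, the choline transporter gene Slc44a1 (−0.11 ± 0.0267, edgeR adjusted p 0.0168). Of 13 precursor genes 6 were negative (median 0.00), and both called genes pointed in opposite directions: Megf11 fell by 0.31 on the log2 scale (adjusted p 0.000149) and Emid1 rose by 0.32 (adjusted p 0.0354). Of 11 newly formed oligodendrocyte genes 7 were negative (median −0.01) and 0 were called. All 14 astrocyte genes were negative (median −0.05), with S100b, which oligodendrocytes make as well (−0.14 ± 0.0275, adjusted p 0.00166) and the glutamate transporter gene Slc1a2 (−0.10 ± 0.0244, adjusted p 0.0354) called. All 14 microglia genes (median −0.05) and all 14 endothelial and pericyte genes (median −0.08) were negative too, with 0 called in either list. All 14 astrocyte markers were detected in every group, and their summed level ran from 6423 to 8070.3 CPM in the 18 males and from 6436 to 7941 in the 20 females. Negative signs were thus shared by the markers of several glial and vascular cell types. Neuronal marker lists are not given here, so these signs are not shown to be particular to glia and vessels. The part of tissue composition in the members' differences was not tested. At the axonal node and paranode, where myelin meets the axon, 8 of 12 genes were negative, Nfasc fell by 0.09 (adjusted p 0.0168) and Cntnap2 rose by 0.10 (adjusted p 0.0423). Of the 20 sterol synthesis genes 11 were negative (median −0.01), and of the 15 fatty acid and sphingolipid genes 11 (median −0.03), with 0 called in either list.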

How the data were processed

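RNA of medial prefrontal cortex from 38 mice was sequenced. Per the submitters' processing notes, the tools were fastp 0.23.2, STAR 2.7.10b and featureCounts, on build GRCm39. What the authors deposited is a table of raw counts per gene that were not normalized. Annotation release and strand setting: not given in the sources used here. Reads of genes that overlap on opposite strands may therefore be mixed. Symbols came from a gene table of GENCODE vM21 (GRCm38), which matched 52029 of 57010 IDs and left 4981 without a symbol; it also gave exon lengths. The labels give no pairing of animals. None of the 74 pairs of replicates were copies (chi-square per degree of freedom 3.67 to 16.6).

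Counts were analysed in R 4.3.3 with edgeR 4.0.16: TMM scaling, filterByExpr (minimum count 10, minimum total 15), a robust quasi-likelihood fit of 4 groups per sex (17212 genes in males, 16435 in females) and of 8 groups over all libraries (17671 genes), and Benjamini-Hochberg adjustment over all genes of a comparison at 0.05. Standard errors were derived from the quasi-likelihood F statistic. Log2 CPM used a prior count of 0.5. DESeq2 1.42.0, another scaling, no filter and leaving out libraries were the alternatives. Scripts were tested on simulated counts. Plots were made in matplotlib 3.10.9 under Python 3.11.15.

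All members could be named. Full values were planned for Mbp, Mog, Mag, Mobp, Cnp, Sox10, Myrf, Aspa, Car2, Cryab and the 3 members with the smallest p in a comparison, along with up to 3 genes of each other list and the 8 genes most like the members. A few genes that this rule names, and the targeted gene, are not reported here. The members, the lists and the tests were chosen with earlier results of these data known.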

Additional observations from a re-analysis of the deposited data

Results flagged for a closer look

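In groups of 4 to 6 libraries, 26 of the members and their mean level were examined for a library far from the others. This made 189 groups, and 8 such values were found. The 3 unstressed mutant males were too few to be examined. Chance alone gives such a value in about 1 of 20 groups. Mbp was low in female mutant CVS replicate 4 (438 CPM, nearest 512), and Ndrg1 was low in female mutant NS replicate 4 (31.7 CPM, nearest 37.3), the group in which Ndrg1 was otherwise high. Plekhh1 was low in male control NS replicate 2 (11.8 CPM, nearest 13.4). Mag was high in female control CVS replicate 3 (36.8 CPM, nearest 32.1), Myrf in female control NS replicate 5 (16.2, nearest 14.2) and Qdpr in female control NS replicate 3 (89.1, nearest 82.7). Opalin was high in female mutant CVS replicate 2 (6.15 CPM, nearest 4.37). Hapln2 was high in male mutant CVS replicate 4 (6.85 CPM, nearest 4.91), the library in which all 31 members lay above their group mean.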

How the results depend on the processing

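Over 331 alternative runs of the 14 comparisons, 314 called 0 members and 17 called at least 1. For genotype over both sexes, DESeq2 called 2 (Adamts4, adjusted p 0.0360, and Mog, adjusted p 0.0296), and leaving out 1 library at a time gave 0 to 4. Of all genes DESeq2 called 295 there, against 193 in the main run. How many of all genes were called in the runs without 1 library is not given. Over 44 runs the adjusted p of Adamts4 ran from 0.0291 to 0.475 and that of Mog from 0.0102 to 0.474, with negative values in each. For genotype in unstressed females, DESeq2 called 1 (Pllp, adjusted p 0.0378), no filter on low counts gave 2 (Tmem88b, 0.0443, and Mag, 0.0239), and leaving out 1 library gave 0 to 1 (Pllp, adjusted p 0.0345, without female mutant NS replicate 1). Of all genes, 90 were called there with DESeq2 and 118 with no filter, against 21 in the main run. For stress over both sexes, the female libraries alone gave 1 (Cldn11), a fit chosen after seeing the data. Of all genes, 0.207% were called in that fit. The cause of these changes was not tested. The members' median changed sign when a single library was left out for stress in both male genotypes, the male interaction, stress in female mutants, genotype in stressed females, stress over both sexes and the sex difference of stress. From the lowest to the highest female library, differences between groups included, the members' level spanned 0.46 log2 units with the median in place of the mean, against 0.35. No paired analysis was possible because the labels give each animal its own name and no shared number. With 3 to 6 mice per group, p-values measure the spread between these mice only. Depth limits Gjb1, Nkx6-2, Ppp1r14a and Aspa most, since they stand at few CPM.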
